A study of Mus musculus with 14 samples.

Results

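Megakaryocyte and platelet genes were followed in mouse bone marrow cells sorted by their level of a GFP label that cell division dilutes. The 9 genes were Vwf, Itga2b, Itgb3, Pf4, Gp9, Selp, Nfe2, Fli1 and Cd9, chosen by name, and all 9 were found among the 18194 genes on the array. They were read by 13 of the 34958 probe sets (groups of probes for 1 transcript) that the platform annotation assigns to a single gene symbol. The brightest probe set on average stood for the gene, and the others served as a check. Only Itgb3, Selp and Fli1 had such others, so Nfe2, Vwf, Itga2b, Pf4, Gp9 and Cd9 had no check of this kind.

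The mice carried 2 transgenes on a C57BL/6 background (at least 10 generations of backcrossing): huCD34-tTA, in which a human CD34 promoter active in stem and multipotent progenitor cells drives the tetracycline transactivator, and Tet-O-H2B-GFP, a histone H2B fused to GFP. Doxycycline (1 mg/ml, in the water of all animals) was begun when the mice were 6 to 8 weeks old and kept up for 12 weeks; it stops new labelling, so that each later division dilutes the GFP. Cells of the LSK phenotype (lineage negative, Sca1+, Kit+), the bone marrow fraction that holds hematopoietic stem cells and multipotent progenitors, were sorted at 5 GFP levels. There were 2 arrays of GFP0 (label most diluted), 3 of GFP1, 3 of GFP2, 2 of GFP3 and 4 of GFP4 (label retained), and neighbouring levels are about 1 to 2 divisions apart. The labels call the arrays biological replicates without naming the animals or saying whether animals were pooled, and the p-values therefore rest on the spread among the sorted samples, which may be technical.

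Megakaryocytes are the large bone marrow cells that shed platelets. Platelets bind exposed vessel walls through von Willebrand factor and the GPIb-IX-V receptor, bind each other through the integrin alphaIIb-beta3, and release alpha granules that hold PF4 and P-selectin. Several of these genes are also transcribed in hematopoietic stem cells, a subset of which is biased towards platelet production, so their messages in LSK cells need not come from megakaryocytes. Vwf and Selp are expressed in endothelial cells too.

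All values are log2 expression per probe set, so a difference of 1 is a doubling, and no detection calls come with them. The median of the whole table, used here as a mark of dim signal, was 7.03. Of the 2 positive sorting markers, Kit lay between 8.05 and 9.91 over the 14 arrays, and Sca1, encoded by Ly6a, was not analysed here. The myeloid lineage marker Itgam lay between 4.92 and 5.60. The leukocyte antigen Ptprc, which the LSK definition above does not name, lay between 9.90 and 12.66. The lineage markers Cd3e (7.10 to 7.89), Cd8a (6.99 to 8.74) and Cd4 (8.08 to 8.78) lay near or above the table median. GFP0 replicate 1 and GFP4 replicate 1 had the narrowest spread of values (interquartile ranges of 2.09 and 2.21, against 2.32 to 2.73 in the other arrays). GFP0 replicate 1 read lower than GFP0 replicate 2 for 8 of the 9 genes, against 46.6% of all genes.

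Of the 9 genes 1 passed for the slope over the 5 levels, Nfe2, which was higher the more label the cells had kept; 3.35% of all 18194 genes passed in either direction, 2.28% higher and 1.07% lower (limma, Benjamini-Hochberg adjusted p under 0.05). Nfe2 was also the 1 gene of the 9 that passed between GFP4 and GFP0, against 1.68% of all genes in either direction and 1.25% higher in GFP4. The slope was above 0 for 6 of the 9 genes, against 45.2% of all genes, and GFP4 minus GFP0 was above 0 for 6, against 45.4%. In bulk samples, fewer cells that express a gene and less RNA per cell cannot be told apart. Vwf had the steepest slope in value but a wide error. Itga2b, Pf4 and Selp had slopes below 0, and Itgb3, Gp9, Fli1 and Cd9 had slopes between 0.02 and 0.08; none of these 8 passed. The median slope was 0.06 over the 9 genes and -0.01 over all genes. Without GFP0 replicate 1 the number that passed was 0 in both comparisons.

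**Figure D1:**
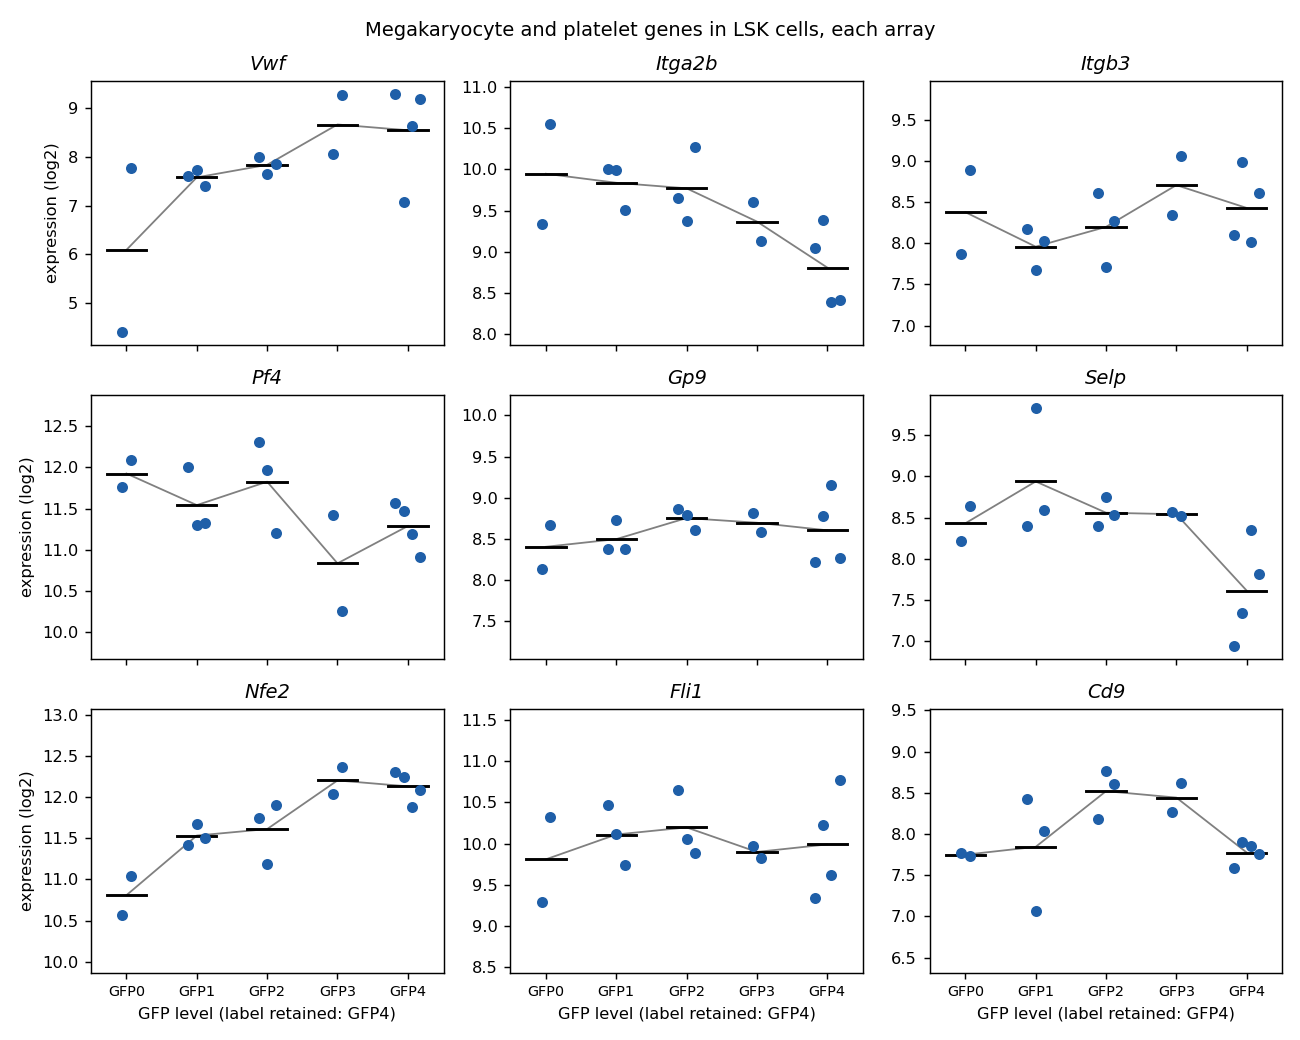
Log2 expression of the 9 genes (vertical axis) in each of the 14 arrays by GFP level (horizontal axis); points are arrays, bars are level means, and a thin line joins the means. The vertical axis covers the same length in every panel except that of Vwf, where it is longer. Nfe2 rises from 10.81 in GFP0 to 12.13 in GFP4, Itga2b has its lowest mean in GFP4, and 1 GFP0 array of Vwf lies far below all others at 4.41.

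Nfe2 encodes the p45 subunit of NF-E2, a transcription factor that megakaryocytes need to release platelets. Its values were 10.57 and 11.04 in GFP0, 11.42, 11.67 and 11.51 in GFP1, and 11.74, 11.19 and 11.90 in GFP2. In GFP3 they were 12.04 and 12.36, and in GFP4 12.31, 12.24, 11.88 and 12.09. The 4 GFP4 arrays did not overlap with GFP0, as was true in that direction of 10.4% of all genes. Both GFP0 arrays lay below every other array, a pattern picked after the values were seen and not counted over all genes. The GFP0 mean was 10.81 ± 0.33 (SD, n = 2). That of GFP4 was 12.13 ± 0.19 (SD, n = 4), a 2.50-fold rise (1.32 ± 0.23 on the log2 scale, SE, limma adjusted p = 0.014). The slope was 0.33 ± 0.05 per level (SE, limma adjusted p = 0.00475). Without GFP0 replicate 1 the slope was 0.28 (limma adjusted p = 0.0517) and the difference 1.08 (limma adjusted p = 0.136). With array quality weights neither passed (limma adjusted p = 0.116 and 0.39). The difference did not pass in a fit of GFP0 and GFP4 only (limma adjusted p = 0.0819), nor with the replicate number as a block. With the 3 prime minus 5 prime differences of Actb and Gapdh, a sign of RNA quality, as covariates both passed (limma adjusted p = 0.0232 and 0.0286).

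The order of the Nfe2 means was GFP0, GFP1, GFP2, GFP4 and GFP3 from low to high. GFP0 and GFP1 arrays did not overlap, as was true in that direction of 11% of all genes (difference 0.72 ± 0.24, SE), but no gene at all passed between these levels in limma, and Nfe2 had an adjusted p of 0.435. GFP1 and GFP2 differed by 0.08 ± 0.22 (SE) and GFP4 and GFP3 by 0.07 ± 0.23 (SE), less than their errors. GFP2 and GFP4 differed by 0.52 ± 0.20 (SE, limma adjusted p = 0.301) and overlapped. By value GFP0 was lowest, GFP1 and GFP2 were intermediate and GFP3 and GFP4 highest, but no comparison of neighbours passed.

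The small Maf proteins are the partners with which p45 binds DNA. Mafg averaged 8.96 in GFP0 and 10.12 in GFP4, with a slope of 0.28 ± 0.08 per level (SE, limma adjusted p = 0.0899), and Mafk averaged 9.60 and 9.35, with a slope of -0.05 ± 0.06 (SE, limma adjusted p = 0.768). Neither passed.

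Fli1 is an ETS family transcription factor that activates platelet glycoprotein genes, and it showed no slope on its brighter probe set. The values were 9.30 and 10.32 in GFP0, 10.47, 10.12 and 9.75 in GFP1, and 10.65, 10.05 and 9.89 in GFP2. They were 9.97 and 9.83 in GFP3, and 9.35, 10.23, 9.62 and 10.77 in GFP4. The arrays of every level overlapped with those of every other, and the 5 means lay within 0.39 of each other. The slope was 0.02 per level, with a 95% interval from -0.18 to 0.21 (limma adjusted p = 0.953), and was -0.088 without GFP0 replicate 1. The dimmer Fli1 probe set lay between 6.21 and 8.23 and had a slope of 0.23 ± 0.10 (SE, limma adjusted p = 0.307 over all probe sets). This slope was larger in value, and the difference between the probe sets was not tested.

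Sequence before the start site was available from RefSeq (GRCm38.p6) for Itga2b, Pf4, Gp9, Selp and Cd9, 5 of the 9 genes. Megakaryocyte genes are known for binding sites of GATA and ETS factors near the start, and the 250 bases before it were searched on both strands for the GATA core GATAA, the ETS cores AGGAAG and CGGAAG, and TGAGTCA, the core bound by NF-E2 and AP-1. These motifs do not overlap each other in the windows shown. The windows of Itga2b and Pf4, whose slopes lay below 0, and of Gp9, whose slope was near 0, are printed 5′ to 3′ on the strand of the gene, with matches to either strand in capitals.
Itga2b, chr11:102469884-102470133, minus strand: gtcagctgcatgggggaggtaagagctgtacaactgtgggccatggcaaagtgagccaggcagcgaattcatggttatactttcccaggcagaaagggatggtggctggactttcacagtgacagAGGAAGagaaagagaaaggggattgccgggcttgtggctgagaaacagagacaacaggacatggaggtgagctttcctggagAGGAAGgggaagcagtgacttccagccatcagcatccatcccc
Pf4, chr5:90772185-90772434, plus strand: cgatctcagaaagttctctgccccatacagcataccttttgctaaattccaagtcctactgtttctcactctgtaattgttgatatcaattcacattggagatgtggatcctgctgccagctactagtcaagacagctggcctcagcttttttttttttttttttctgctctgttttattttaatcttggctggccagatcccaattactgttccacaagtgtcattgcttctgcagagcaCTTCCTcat
Gp9, chr6:87777820-87778069, plus strand: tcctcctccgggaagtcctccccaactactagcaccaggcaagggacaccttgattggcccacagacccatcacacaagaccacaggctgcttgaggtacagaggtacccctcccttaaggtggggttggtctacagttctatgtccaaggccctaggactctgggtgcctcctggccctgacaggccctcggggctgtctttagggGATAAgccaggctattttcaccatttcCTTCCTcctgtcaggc

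All 5 windows held AGGAAG on 1 of the strands, as 29.5% of 32851 windows of the same length did. GATAA was in that of Gp9, as in 22.6% of all windows. CGGAAG, in 13.6% of all windows, and TGAGTCA, in 4.46%, were in none of the 5. In Itga2b the ETS core AGGAAG began at positions -125 and -43, where -1 is the base next to the start. A match of letters describes the window, and no slope in these data was tied to one.

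Itga2b encodes the alphaIIb chain of the platelet integrin (CD41), a chain found also on progenitors early in blood formation. Its values were 9.34 and 10.55 in GFP0, 10.01, 10.00 and 9.51 in GFP1, and 9.65, 9.38 and 10.28 in GFP2. They were 9.60 and 9.13 in GFP3, and 9.04, 9.39, 8.39 and 8.41 in GFP4. The highest array was GFP0 replicate 2 and the lowest 3 were GFP4 arrays, but GFP4 replicate 2 reached above GFP0 replicate 1. The share of all genes with such an order was not counted. The means ran downwards without a break from 9.95 ± 0.86 (SD, n = 2) in GFP0 over 9.84, 9.77 and 9.37 to 8.81 ± 0.49 (SD, n = 4) in GFP4. The slope was -0.27 ± 0.09 per level (SE, limma adjusted p = 0.107), with an unadjusted p of 0.00683. GFP4 minus GFP0 was -1.14 ± 0.38 (SE, limma adjusted p = 0.164), and none of the 4 neighbouring pairs of means differed by more than 0.56.

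The size of this slope depended on which GFP0 array was used. It was -0.40 without GFP0 replicate 1 (limma adjusted p = 0.07) and -0.15 without GFP0 replicate 2 (limma adjusted p = 0.319). With the RNA quality covariates it was -0.15 (limma adjusted p = 0.633). In a regression on the level as a number it was -0.30 and passed (limma adjusted p = 0.044).

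Itgb3 encodes the beta3 chain that pairs with alphaIIb in platelets and with alphaV elsewhere. The 14 arrays lay between 7.67 and 9.06, and the level means of 8.38, 7.96, 8.20, 8.70 and 8.43 from GFP0 to GFP4 overlapped in their arrays between every pair of neighbours. The slope was 0.08 per level (95% interval -0.09 to 0.26, limma adjusted p = 0.671), and -0.017 without GFP0 replicate 1. The second Itgb3 probe set, dimmer at 6.78 to 7.65, had a slope of -0.00054 ± 0.046 (SE). Itgav, the other partner of beta3, had a slope of 0.15 ± 0.10 (SE, limma adjusted p = 0.493).

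Gp9 encodes GPIX, the small subunit of the receptor for von Willebrand factor. Its values were among the least spread of the 9 genes: the lowest array was 8.14 (GFP0 replicate 1), the median 8.64 and the highest 9.15 (GFP4 replicate 3). The level means were 8.41, 8.50, 8.75, 8.70 and 8.61 from GFP0 to GFP4. The 4 other levels all overlapped with GFP0. The slope was 0.06 per level (95% interval -0.07 to 0.19, limma adjusted p = 0.683), and 0.0070 without GFP0 replicate 1.

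Of the other subunits of that receptor, Gp1bb varied widely within levels. It was 7.04 and 9.58 in GFP0, and 5.43, 9.74, 6.80 and 6.03 in GFP4, where replicate 2 stood above the rest. Its slope was -0.38 ± 0.23 (SE, limma adjusted p = 0.435), and -0.64 without GFP0 replicate 1. Gp5 had a slope of -0.09 ± 0.07 (SE, limma adjusted p = 0.554). Gp1ba was not analysed here.

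Vwf encodes von Willebrand factor, the ligand that tethers platelets to the vessel wall and a gene whose promoter activity marks platelet-biased stem cells. Its values were 4.41 and 7.77 in GFP0, 7.61, 7.73 and 7.39 in GFP1, and 8.00, 7.65 and 7.85 in GFP2. They were 8.06 and 9.25 in GFP3, and 9.29, 7.07, 8.62 and 9.19 in GFP4. GFP3 and 3 of the 4 GFP4 arrays lay above all arrays of GFP0, GFP1 and GFP2, but GFP4 replicate 2 lay below GFP0 replicate 2. This order was picked after the Vwf values were seen, and its share among all genes was not counted. The mean was 6.09 ± 2.38 (SD, n = 2) in GFP0, 7.58 ± 0.17 (SD, n = 3) in GFP1, 7.83 ± 0.17 (SD, n = 3) in GFP2, 8.66 ± 0.84 (SD, n = 2) in GFP3 and 8.54 ± 1.03 (SD, n = 4) in GFP4.

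The Vwf difference between GFP4 and GFP0 was 2.45 ± 0.76 (SE, limma adjusted p = 0.133), and the slope had a 95% interval from 0.23 to 0.97 per level (limma adjusted p = 0.0813). Without GFP0 replicate 1, the array at 4.41, the slope was 0.26 (limma adjusted p = 0.484) and the difference 0.77 (limma adjusted p = 0.732). Without GFP0 replicate 2 the slope was 0.93 (limma adjusted p = 0.011) and the difference 4.13 (limma adjusted p = 0.019). Without GFP4 replicate 2 the slope was 0.70 (limma adjusted p = 0.027). In that array the 13 measured neutrophil and monocyte markers averaged 9.81, against 7.57 to 8.32 in the other GFP4 arrays, and the 9 mast cell and basophil markers 7.71, against 6.35 to 6.63; their part in the Vwf value was not tested.

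Pf4 encodes platelet factor 4, a chemokine of alpha granules that is also known to restrain stem cell cycling. It was bright in every array, with values of 11.76 and 12.09 in GFP0, 12.00, 11.30 and 11.32 in GFP1, and 12.30, 11.97 and 11.20 in GFP2. They were 11.42 and 10.25 in GFP3, and 11.57, 11.48, 11.19 and 10.92 in GFP4. All 4 GFP4 arrays lay below both GFP0 arrays, as was true in that direction of 7.75% of all genes, and the lowest array was GFP3 replicate 2. The slope was -0.20 ± 0.08 per level (SE, limma adjusted p = 0.24), and GFP4 minus GFP0 was -0.64 ± 0.36 (SE, limma adjusted p = 0.46). Without GFP3 replicate 2 the slope was -0.14, still below 0, as it was without each of the other 13 arrays. Ppbp, the neighbouring platelet chemokine, averaged 6.93 in GFP0 and 7.91 in GFP4 with a slope of 0.28 ± 0.10 (SE, limma adjusted p = 0.157). Its GFP0 arrays were 6.00 and 7.86, and the slope was 0.094 without the first (replicate 1) and ran up to 0.47 without single arrays.

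Selp encodes P-selectin, which moves from granules to the surface of activated platelets and endothelium and holds leukocytes there. Its values were 8.21 and 8.65 in GFP0, 8.39, 9.83 and 8.59 in GFP1, and 8.39, 8.75 and 8.53 in GFP2. They were 8.56 and 8.52 in GFP3, and 6.94, 7.34, 8.35 and 7.82 in GFP4. The means of GFP0, GFP2 and GFP3 lay between 8.43 and 8.56, whereas 3 of the 4 GFP4 arrays lay below all 10 arrays of the other levels. This separation was picked after the Selp values were seen, and its share among all genes was not counted. The difference between GFP4 and GFP3 was -0.93 ± 0.40 (SE, limma adjusted p = 0.888), and that between GFP4 and GFP1 was -1.32 ± 0.35 (SE, limma adjusted p = 0.1). The slope was -0.20 ± 0.09 per level (SE, limma adjusted p = 0.281).

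The other Selp probe sets had slopes of smaller size. One, at 6.56 to 8.28, had a slope of -0.05 ± 0.07 (SE). Its means were 7.64, 7.93, 7.99, 7.91 and 7.42 ± 0.62 (SD, n = 4) from GFP0 to GFP4. Another, which ends in _x_at and can take up related transcripts, ranged from 4.58 to 9.74 with a slope of 0.03 ± 0.23 (SE). There the means were 6.35, 8.62, 8.75, 8.68 and 6.45 ± 1.97 (SD, n = 4). On both, the GFP4 mean lay below those of GFP1, GFP2 and GFP3, but the arrays overlapped. On the _x_at probe set GFP0 was as low as GFP4. Selplg, which encodes the ligand of P-selectin on leukocytes, had a slope of -0.08 ± 0.07 (SE, limma adjusted p = 0.593).

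Cd9 encodes a tetraspanin that is abundant on platelets and also present on stem cells. Its values were 7.77 and 7.73 in GFP0, 8.43, 7.06 and 8.04 in GFP1, 8.18, 8.77 and 8.61 in GFP2, 8.27 and 8.62 in GFP3, and 7.59, 7.90, 7.86 and 7.75 in GFP4. All 5 arrays of GFP2 and GFP3 lay above all 6 arrays of GFP0 and GFP4, and GFP1 spanned both; 123 genes, 0.676% of all, showed this separation, which was chosen after the Cd9 values were seen. The middle levels averaged 8.52 and 8.44, against 7.75 in GFP0 and 7.77 in GFP4. GFP4 minus GFP2 was -0.74 ± 0.27 (SE, limma adjusted p = 0.27) and GFP2 minus GFP0 was 0.77 ± 0.32 (SE, limma adjusted p = 0.28). The test for a departure from a straight line gave an unadjusted p of 0.0276 and an adjusted p of 0.679 in limma; 0 of 18194 genes passed it after adjustment, and 7.01% had an unadjusted p under 0.05. Cd9 was the 1 gene of the 9 in that share.

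**Figure D2:**
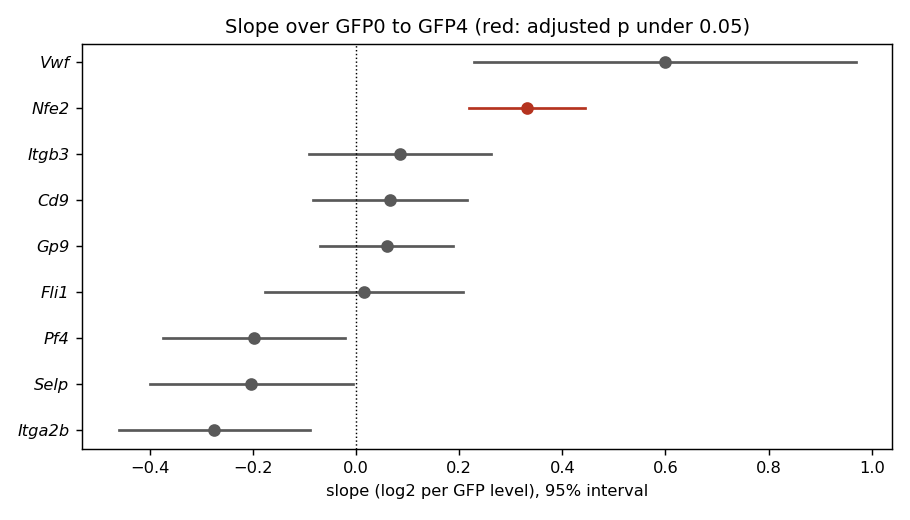
Slope of each of the 9 genes over GFP0 to GFP4 (horizontal axis, log2 per level) with its 95% interval from limma over 14 arrays; red marks an adjusted p under 0.05. Nfe2 alone is red, the interval of Vwf from 0.23 to 0.97 is the widest, and Itga2b, Selp and Pf4 lie below 0.

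None of the 9 genes passed the test for any difference between the 5 levels, against 0.698% of all genes; Nfe2 had the smallest adjusted p, at 0.0644. Nor did any pass for a single pair of levels other than GFP4 and GFP0, against 0.055% of all genes for GFP3 and GFP0, 0.989% for GFP4 and GFP1, 0.115% for GFP4 and GFP2 and none for the remaining 6 pairs. Among the 13 probe sets, that of Nfe2 was the 1 that passed for the slope, against 2.28% of all 34958. By unadjusted p under 0.05, 5 of the 9 slopes (Vwf, Itga2b, Pf4, Selp and Nfe2) stood out, against 16.7% of all genes, with 2 above 0 and 3 below.

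The leave-one-out values show which of these slopes rest on single arrays.

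**Figure D3:**
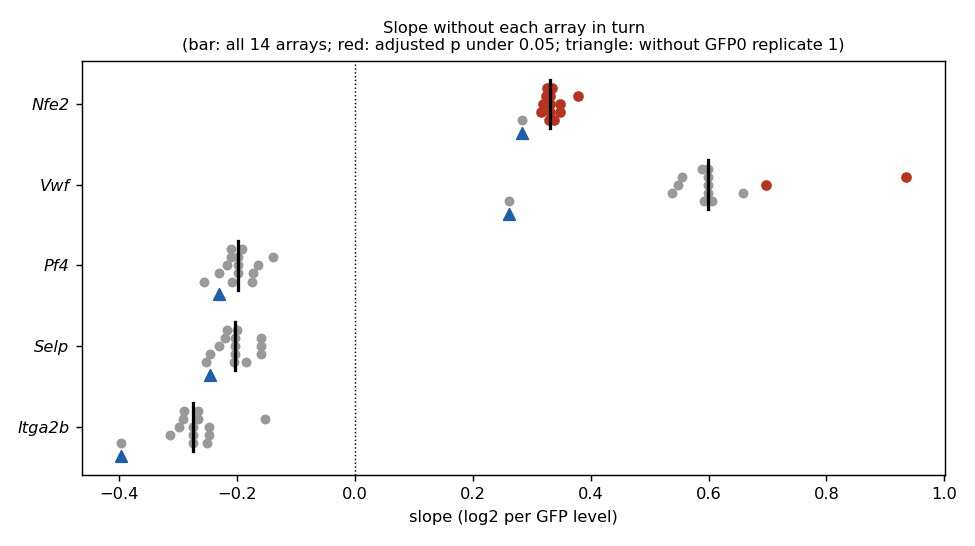
Slopes of 5 genes (horizontal axis, log2 per level) when each of the 14 arrays is left out in turn; the bar is the slope with all arrays, red marks an adjusted p under 0.05 and the triangle marks the value without GFP0 replicate 1. Nfe2 stays between 0.28 and 0.38, while Vwf runs from 0.26 to 0.93 and Itga2b from -0.40 to -0.15.

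Across arrays the 9 genes were related to each other to varying degrees. Over the 36 pairs of genes, Pearson's r over the 14 arrays ran from -0.60 (Pf4 and Nfe2) to 0.77 (Vwf and Nfe2), with a median of 0.09, and the points share arrays and GFP levels. Itga2b and Itgb3, the 2 chains of 1 receptor, had an r of 0.03, and of 0.46 after the level means were removed. Vwf and Nfe2 had an r of 0.44 after that step. Such values describe these arrays and carry no test.

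Among 11030 genes at or above the table median, those most like Nfe2 over the 14 arrays were C1ra (r = 0.92), Tmem158 (0.92) and Trim14 (0.92). After the level means were removed these values were 0.72, 0.56 and 0.49. Their slopes were 0.27, 0.43 and 0.33 per level, which likeness to a gene with a slope favours. Most like Vwf were Tgif2 (r = 0.91), Plxdc2 (0.90) and Nck2 (0.90); without the 2 arrays in which Vwf lay farthest from its median the values were 0.82, 0.81 and 0.69 over 12 arrays. Plxdc2 rose by 0.51 ± 0.09 per level (SE, limma adjusted p = 0.0102), while Tgif2 and Nck2 did not pass. Most like Itga2b were Fancd2 (r = 0.87), Blvra (0.86) and Nudt19 (0.86). Of these Fancd2, a DNA repair gene, fell (-0.24 ± 0.05, SE, limma adjusted p = 0.0258). Likeness to Vwf or Itga2b also favours a slope of the same sign. The slopes of Plxdc2 and Fancd2 are therefore no independent evidence.

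Pf4 was most like Mrpl51 (r = 0.94), Mastl (0.92) and Snrpd3 (0.89), Selp most like Psrc1 (0.94), Car3 (0.92) and Spsb4 (0.92), and Cd9 most like Golga7 (0.93), Rdh14 (0.93) and Hnrnph1 (0.92). For Itgb3 the nearest were Rprd1b (0.79), Mtfmt (0.79) and Creb3l2 (0.75), for Gp9 Ccdc59 (0.78), Swsap1 (0.78) and Rbakdn (0.76), and for Fli1 4930581F22Rik (0.88), Tinf2 (0.87) and 4930527J03Rik (0.85). None of these 18 genes passed for the slope.

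The wider megakaryocyte programme was read through 5 lists that do not hold the 9 genes. These lists were chosen with earlier results of these data known, so their shares are no independent evidence. Of 113 listed genes 105 were measured; 8 rose, 1 fell and the rest did not pass, so 8.57% were called beside 3.35% of all genes. The median slope was 0.06. Without GFP0 replicate 1, Gng11, Mmrn1 and Tbxas1 were called higher and Gata1 lower, 3.81% of the 105, beside 1.06% of all genes in that fit. With the RNA quality covariates 6 were higher and 1 lower, 6.67% beside 0.907% of all genes: Esam, Angpt1, Lmo2 and Gata1 did not pass there, and Cbfa2t3 (higher) and Tln1 (lower) did.

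Of 22 surface receptors 1 rose, Esam, an adhesion molecule of platelets, endothelium and stem cells, from 8.49 in GFP0 to 9.85 in GFP4 (slope 0.39 ± 0.07, SE, limma adjusted p = 0.0115; 0.36 and adjusted p = 0.0874 without GFP0 replicate 1). The median of the list was -0.04, and 9 of the 22 slopes lay above 0. Of 17 cytoskeleton genes none passed, among them Tubb1, the platelet beta tubulin, at 0.02 per level (limma adjusted p = 0.925).

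Among 21 genes of alpha granules and their formation 3 rose. Mmrn1, which encodes multimerin 1, a carrier of factor V in the granules, had the steepest rise of the 5 lists. It was 9.25 and 8.21 in GFP0 and between 10.98 and 11.62 in the 4 GFP4 arrays, with no overlap, as in that direction for 10.4% of all genes. Its slope was 0.74 ± 0.09 (SE, limma adjusted p = 0.00172) and passed without each of the 14 arrays in turn. Nbeal2, which alpha granules need to form, rose by 0.43 ± 0.08 (SE, limma adjusted p = 0.00932; 0.0777 without GFP0 replicate 1). Angpt1, a ligand of the Tie2 receptor, rose by 0.31 ± 0.08 (SE, limma adjusted p = 0.0402), but passed in 4 of 14 leave-one-out fits; its adjusted p was 0.175 without GFP0 replicate 1.

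Of 23 transcription factors Meis1 (0.40 ± 0.08, SE, limma adjusted p = 0.0141) and Lmo2 (0.21 ± 0.05, SE, limma adjusted p = 0.047) rose and Gata1 fell. Without GFP0 replicate 1 neither Meis1 (limma adjusted p = 0.0935) nor Lmo2 (limma adjusted p = 0.185) passed, and Lmo2 passed in 2 of 14 leave-one-out fits. Gata1, the factor that drives both erythroid and megakaryocyte genes, was 9.28 and 11.07 in GFP0, and 8.33, 7.75, 7.71 and 7.59 in GFP4. Its slope was -0.55 ± 0.10 (SE, limma adjusted p = 0.00916), opposite in sign to that of Nfe2, and it passed in all 14 leave-one-out fits. With the RNA quality covariates it was -0.43 and did not pass (limma adjusted p = 0.113). Erg, an ETS factor related to Fli1, had a slope of 0.21 ± 0.06 (SE, limma adjusted p = 0.0947) and Runx1 one of 0.13 ± 0.09 (SE, limma adjusted p = 0.548), which was -0.014 without GFP0 replicate 1.

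Of 22 signalling genes Tbxas1 and Gng11 rose. Tbxas1, the thromboxane synthase, went from 8.37 in GFP0 to 10.41 in GFP4 (slope 0.51 ± 0.06, SE, limma adjusted p = 0.00175), and Gng11, a G protein gamma subunit, from 10.71 to 12.03 (slope 0.36 ± 0.05, SE, limma adjusted p = 0.00247). Both passed in all 14 leave-one-out fits.

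**Figure D4:**
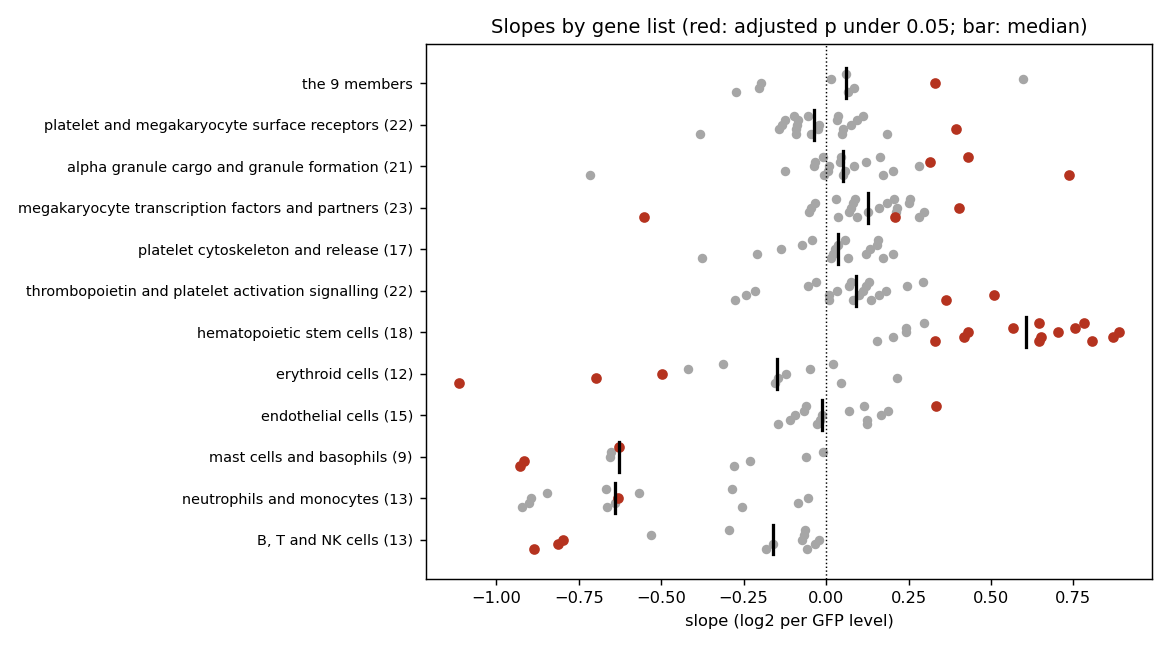
Slopes over GFP level (horizontal axis, log2 per level) of the 9 genes and of each listed gene, by list with the number measured; grey points did not pass, red points had an adjusted p under 0.05, and bars are list medians. The platelet lists centre between -0.04 and 0.13, the stem cell list at 0.61, and the mast cell and the neutrophil lists at -0.63 and -0.64.

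Markers of other cells were read beside these genes. Of 18 hematopoietic stem cell genes 13 rose and none fell, beside 2.28% of all genes higher and 1.07% lower. The median slope of the list was 0.61, and 0.56 without GFP0 replicate 1. With array weights 9 rose and with the RNA quality covariates 10, and none fell in either fit. This list, like all the others, was chosen with earlier results of these data known and is no independent evidence. Of 12 erythroid genes 3 fell, Klf1 (-0.70 ± 0.16, SE), Car1 (-1.11 ± 0.28, SE) and Aqp1 (-0.50 ± 0.09, SE); without GFP0 replicate 1, Klf1 and Aqp1 passed, and without GFP0 replicate 2, with array weights or with the RNA quality covariates none did. The mean of that list ran from 8.22 to 9.08 over the GFP0 arrays and from 7.38 to 7.89 over the GFP4 arrays. Gata1 was lower in GFP4 as well, and so was the mean of Itga2b, which overlapped and did not pass. A link of either to the erythroid genes was not tested.

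Of 15 endothelial genes Tie1, a receptor tyrosine kinase, rose (0.33 ± 0.08, SE, limma adjusted p = 0.0436). Its slope ran from 0.27 to 0.39 without single arrays and was 0.39 without GFP0 replicate 1. Tie1 did not pass with array weights (limma adjusted p = 0.35) or with the RNA quality covariates (limma adjusted p = 0.0721). The mean of the 15 endothelial genes ran from 7.15 to 7.24 in GFP0, from 6.94 to 7.09 in GFP1 and from 6.99 to 7.09 in GFP2. It ran from 7.12 to 7.16 in GFP3 and from 7.14 to 7.43 in GFP4. Of the 15 slopes 7 lay above 0, with a median of -0.01. Of 9 mast cell and basophil genes 3 fell (Cpa3, Ms4a2 and Fcer1a), of 13 neutrophil and monocyte genes 1 (Ltf) and of 13 B, T and NK cell genes 3 (Vpreb1, Nkg7 and Il7r). The neutrophil and monocyte mean ran from 9.85 to 10.94 in GFP0 and from 7.57 to 9.81 in GFP4. Without GFP0 replicate 1, with array weights and with the RNA quality covariates none of the mast cell or neutrophil genes passed. Il7r passed in all 3 of these fits, alone of the lymphoid genes in the first 2 and with Vpreb1 in the last. The part of such cells in the values of the 9 genes was not tested.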

How the data were processed

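The labels' protocols say that total RNA of the sorted cells was amplified and given a biotin label. The submitters' processing notes name affy, GCOS and RMA, with no version; RMA corrects background, normalizes quantiles and summarizes probes. The deposited values are log2 expression per probe set, from 2.69 to 15.13 in 45101 probe sets, as the values themselves show. No genome build was given in the sources used here. The table holds no detection calls, and the number of arrays limits the precision.

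The values were not normalized again. A model of 5 group means over the 14 arrays was fitted with limma 3.58.1 (R 4.3.3) and moderated by eBayes (residual df 9, prior df 3.99); all groups share its variance. Contrasts were the slope (equal weight per level) and all pairs of levels, with F tests for any difference and for departure from a line, adjusted over 18194 genes by Benjamini-Hochberg at 0.05; errors are moderated. Other probe sets were tested in a fit of 34958. Tested on simulated data of 18194 genes, the slope test recovered 46.3% of genes changed by 0.25 per level and 88.3% of those changed by 0.5.

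The 9 genes and all lists were chosen with earlier results of these data known. Genes named from lists were those past the slope threshold, at most 5 per list by p, plus named partners of the 9 genes; for likeness, the 3 highest r per gene. Tubb1, Cbfa2t3 and Tln1 fall outside this rule and were chosen after their values were seen. Alternatives were array centring or cyclic loess, averaging the probe sets of a gene, dropping dim genes, another variance model, array weights, the replicate block, leaving out arrays, fewer groups, regression, and RNA quality covariates. Figures used matplotlib 3.10.9.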

Additional observations from a re-analysis of the deposited data

Results flagged for a closer look

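In GFP4 the Mmrn1 value of replicate 4 (11.62) lay apart from the other 3 (10.98 to 11.03), with a gap of 0.923 of the group's range. For Cpa3, a mast cell carboxypeptidase, GFP4 replicate 2 (9.77) lay apart from the other 3 (6.38 to 6.67), with a gap of 0.915 of the range. These were 2 of 47 probe sets and genes examined in GFP4, and chance alone sets apart about 1 group in 20.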

How the results depend on the processing

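The count of the 9 genes called for the slope, 1 with all arrays, was 0 with array quality weights, 0 without replicate 1 of both GFP0 and GFP4 (the arrays numbered 1), 2 in the regression on the level, and 0 to 2 without single arrays. For GFP4 against GFP0 it was 0 with array weights, with the replicate block, in a fit of only GFP0 and GFP4 and without the arrays numbered 1, and 0 to 2 without single arrays. For any difference it was 1 with the mean over probe sets, and 0 with every other alternative, as for departure from a line. The 9 called genes of the 5 platelet lists became 4 with array weights, 4 without the arrays numbered 1, 7 with the RNA quality covariates and 4 to 12 without single arrays (chosen after seeing the data). With all arrays 8.57% of the list genes were called, beside 3.35% of all genes. With array weights it was 3.81% beside 0.495%, and with the RNA quality covariates 6.67% beside 0.907%. The Nfe2 slope stayed above 0 throughout, from 0.27 to 0.38 per level.

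Slopes and differences near 0 changed sign. Fli1 had a slope of -0.0047 with cyclic loess, -0.024 with the block, -0.045 without the arrays numbered 1 and -0.088 to 0.12 without single arrays, and a GFP4 minus GFP0 difference of -0.12 without the arrays numbered 1 and -0.33 to 0.69 without single arrays. Itgb3 had a slope of -0.017 to 0.19 without single arrays, and a difference of -0.047 with loess, -0.055 with array weights, -0.35 without the arrays numbered 1 and -0.46 to 0.56 without single arrays. The difference of Gp9 ran from -0.065 to 0.46 without single arrays. That of Cd9 was -0.050 with loess, -0.026 with the block, -0.075 with the RNA quality covariates and -0.015 to 0.089 without single arrays. Why these settings differ was not tested.

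Over all genes the count for the slope, 609, ran from 90 (array weights) to 768, and that for GFP4 against GFP0, 306, from 2 (array weights) to 374. Deviations of same-numbered arrays correlated from -0.26 to 0.58 (median 0.05, 23 pairs), and those of other arrays from -0.63 to 0.48 (median -0.05, 54 pairs). Of the 14 arrays 6 correlated best with their own number. In groups of 2 arrays the deviations mirror each other, so this check cannot settle whether the numbers pair the arrays. With the replicate block Nfe2 had a slope of 0.33 (limma adjusted p = 0.0269) and a difference of 1.34 (limma adjusted p = 0.0838).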

Other observations

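GFP4 replicate 2 held some values at the edge of its group. Every gene has a lowest and a highest array among the 4, so an edge value alone says little. The genes named here were picked after their values were seen. Among the 4 GFP4 arrays it had the lowest Vwf (7.07) and the highest Itga2b (9.39), Itgb3 (8.98), Cd9 (7.90), Gp1bb (9.74) and Cpa3 (9.77). Its Nfe2 value of 12.24 lay within those of the other 3, as did its Pf4 value of 11.48 and its values of Gp9, Selp and Fli1. The mean of the erythroid markers was 7.89 in this array, against 7.38 to 7.58 in the other 3. Those of the neutrophil and monocyte (9.81) and the mast cell and basophil markers (7.71) were also its group's highest. The stem cell list mean, 9.64, lay within those of the other 3. Why this array stood apart in these lists was not tested.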
